A study of Mus musculus with 76 samples.

Results

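The 8 genes described here are Pax3, Pax6, Pax7, Otx1, Otx2, Barhl1, Barhl2 and Emx2, a list of transcription factors that pattern the diencephalon and pretectum. They were chosen by name and are 8 of the 56923 gene IDs in the count files. The study compared mice that are homozygous for the human sequence of the enhancer hs754, put in place of its mouse counterpart (hs754-humanized), with homozygous wild type mice. Both are C57BL/6J embryos from crosses within their own genotype, and diencephalon was taken at the embryonic stages E11.5 and E17.5, named by days after conception. RNA-seq of polyA-selected RNA had 4 replicates per genotype and stage. Immunoprecipitated chromatin was sequenced (ChIP-seq) for the histone marks H3K27ac, H3K4me3 and H3K27me3, with 2 E11.5 and 3 E17.5 replicates per genotype, and for the DNA-binding protein CTCF with 3 per genotype at the later stage. Each replicate pools embryos of 1 litter, 6 at the early and 3 at the late stage, so no value belongs to a single animal. The humanized line came from CRISPR editing of C57BL/6J embryos, whose edited founders were crossed back to C57BL/6J.

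These factors divide the early neural tube into regions. Pax proteins bind DNA through a paired domain and a homeodomain: Pax3 and Pax7 are paralogues of the dorsal neural tube, roof of the midbrain and pretectum, and Pax6 marks forebrain progenitors and the border between diencephalon and midbrain. Otx1 and Otx2 are homeodomain proteins that give the forebrain and midbrain their identity. Barhl1 and Barhl2 are homeodomain proteins of the Bar family, present in diencephalic and other neurons, and Emx2 is a homeodomain factor of the dorsal telencephalon whose domain reaches into the diencephalon. H3K4me3 marks promoters that are active or poised, H3K27ac marks active promoters and enhancers, and H3K27me3 is laid down by Polycomb complexes at repressed developmental genes. Promoters that carry H3K4me3 together with H3K27me3 are called bivalent, a state for which developmental regulators are known.

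All 8 genes are protein-coding. In mm39, Pax3 (ENSMUSG00000004872.16) lies at chr1:78077904-78173771 and Pax7 (ENSMUSG00000028736.14) at chr4:139464373-139560839, both on the minus strand. Pax6 (ENSMUSG00000027168.22) is on the plus strand at chr2:105499234-105530952, with 29 annotated starts against 1 to 11 for the other 7. Otx1 (ENSMUSG00000005917.16) is at chr11:21944764-21952897, Otx2 (ENSMUSG00000021848.17) at chr14:48894099-48911276, Barhl1 (ENSMUSG00000026805.15) at chr2:28797691-28806680 and Barhl2 (ENSMUSG00000034384.12) at chr5:106600389-106606336, all on the minus strand. Emx2 (ENSMUSG00000043969.5) is on the plus strand at chr19:59446804-59453789. None of them is on chromosome 13, which carries hs754.

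Between 16414369 and 24272569 reads per sample were counted on genes. Levels are given as counts per megaread (CPM), after library sizes were scaled by edgeR's TMM factors. Among marker lists of cell types and regions, the 8 diencephalon markers (such as Tcf7l2, Gbx2 and Lhx9) summed to 854 to 1645 CPM in the E11.5 samples and 1412 to 1796 CPM at E17.5. Hindbrain and skeletal muscle lists stayed at or below 1.35 CPM in every sample. The telencephalon list summed to 1.80 to 3.46 CPM at E11.5 and 52.0 to 95.9 CPM at E17.5. Of its 5 genes, 4 were called higher and 1 lower in both genotypes. The midbrain list (En1, En2 and Pax5) varied from 0.827 to 18.5 CPM at E11.5 and from 3.15 to 11.3 CPM at E17.5. The part of neighbouring tissue in the levels of the members was not tested. Choroid plexus markers summed to 9.81 to 27.5 CPM at E11.5 and 102.3 to 512 CPM at E17.5, most of it Ttr (225 CPM at E17.5 in wild type mice), while Kcne2 was also called higher and Folr1 and Clic6 were not. Wild type replicate 1 at E17.5 stood apart from its group, with a neuron list (Tubb3, Snap25, Rbfox3, Syt1) at 3352 CPM against a group median of 1736. Where main results rest on it, its own value or the result without it is given.

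Every member was lower at E17.5 than at E11.5, in both genotypes. In wild type mice the fall ranged from 4.04-fold (Emx2) to 18.8-fold (Pax3). With Benjamini-Hochberg adjustment and a threshold of 0.05, edgeR's quasi-likelihood test called 8 of 8 members lower, where 26.7% of all 18583 genes tested were called lower and 29% higher. In humanized mice 8 of 8 were called lower, against 39.5% lower and 38.2% higher among 18781 genes. The median log2 fold change of the members was -3.02 in wild type and -3.07 in humanized mice, beside -0.01 and -0.04 for all genes tested. In bulk tissue, fewer cells of a type and less RNA per cell cannot be told apart.

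Pax3, a dorsal determinant also needed in neural crest, had the largest fall in wild type mice. Its wild type replicates 1 to 4 were at 42.3, 38.3, 56.7 and 44.2 CPM at E11.5 and at 2.82, 2.72, 2.44 and 1.77 CPM at E17.5. The humanized replicates were at 35.5, 44.4, 39.3 and 57.1 CPM, then at 3.31, 2.85, 3.77 and 3.82 CPM. The stages did not overlap in either genotype. The log2 fold change was -4.23 with a standard error of 0.24 in wild type mice (adjusted p = 5.00e-07, edgeR) and -3.70 with a standard error of 0.19 in humanized mice (adjusted p = 7.71e-09, edgeR). Only 0.554% of the genes tested in wild type mice had a lower log2 fold change.

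Pax7, its paralogue, followed with the second largest fall in wild type and the largest in humanized mice. At E11.5 its wild type replicates held 32.7, 36.7, 35.1 and 29.7 CPM, and the humanized ones 33.2, 47.9, 30.1 and 38.8 CPM. By E17.5 these were 4.18, 3.10, 2.19 and 1.48 CPM in wild type and 3.25, 2.24, 2.92 and 1.72 CPM in humanized mice. Again no E17.5 sample reached the lowest E11.5 sample, and wild type replicate 1 was the highest E17.5 sample of its group. The log2 fold changes were -3.63 ± 0.30 (SE) and -3.89 ± 0.22 (SE), with edgeR adjusted p-values of 4.49e-06 and 1.46e-08.

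Pax6, known for its part in forebrain progenitors and in the eye, fell less than the other Pax genes. Wild type replicates went from 176, 177, 215 and 207 CPM to 39.1, 52.8, 50.1 and 43.4 CPM. Humanized replicates went from 203, 167, 173 and 189 CPM to 49.4, 49.9, 49.0 and 45.7 CPM. All E17.5 samples lay below 53 CPM and all E11.5 samples above 166 CPM. The log2 fold changes were -2.08 ± 0.18 (SE, edgeR adjusted p = 5.01e-06) in wild type and -1.93 ± 0.11 (SE, adjusted p = 1.56e-08) in humanized mice. Here replicate 1 was the lowest, not the highest, of the wild type E17.5 samples.

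The paralogues Otx1 and Otx2, which specify forebrain and midbrain, fell 8.80-fold and 8.49-fold in wild type mice. Otx2 was the most abundant member, with 274, 285, 333 and 308 CPM in the wild type replicates at E11.5 and 41.0, 34.6, 34.4 and 32.6 CPM at E17.5. In humanized mice it was at 299.7, 304, 316 and 325 CPM and at 32.7, 34.2, 44.0 and 32.6 CPM. Its log2 fold changes of -3.09 ± 0.17 (SE) and -3.13 ± 0.13 (SE) had edgeR adjusted p-values of 4.89e-07 and 1.48e-09.

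Otx1 was at 146, 151, 129.9 and 137 CPM in wild type mice at E11.5 and at 24.3, 14.4, 12.8 and 13.03 CPM at E17.5. In humanized mice it was at 164, 144, 153 and 138 CPM and then at 14.6, 13.8, 15.9 and 14.5 CPM. The E17.5 wild type spread came from replicate 1, at 24.3 CPM, with the other 3 within 12.8 to 14.4 CPM. The log2 fold changes were -3.14 ± 0.24 (SE) in wild type and -3.36 ± 0.11 (SE) in humanized mice (edgeR adjusted p = 2.65e-06 and 4.50e-10), and without that library the wild type value was -3.42.

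Barhl1 and Barhl2, Bar-class factors of diencephalic neurons, were also lower. Barhl2 was at 117, 106, 88.6 and 96.0 CPM in wild type mice at E11.5 and at 14.9, 12.6, 12.6 and 12.3 CPM at E17.5. Its humanized replicates were at 108, 105, 88.0 and 92.5 CPM, then 12.2, 9.95, 16.2 and 12.3 CPM. Its log2 fold change was -2.96 with a standard error of 0.17 in wild type and -2.97 with 0.15 in humanized mice (edgeR adjusted p = 6.46e-07 and 6.54e-09).

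Barhl1 had fewer reads: 40.2, 39.9, 24.1 and 30.2 CPM in wild type at E11.5 and 9.25, 5.11, 3.73 and 3.88 CPM at E17.5. Humanized replicates were at 42.0, 42.5, 32.9 and 28.7 CPM and at 4.53, 3.94, 5.68 and 4.01 CPM. It was the member with the widest relative spread in the E17.5 wild type group (coefficient of variation 47.0%), since replicate 1 lay above the rest. The log2 fold changes were -2.62 ± 0.32 (SE) and -3.01 ± 0.17 (SE), with edgeR adjusted p-values of 5.94e-05 and 1.64e-08. Without wild type replicate 1 at E17.5, the wild type value was -3.01.

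Emx2, which patterns the cortex and its border with the diencephalon, had the smallest fall. It was at 57.7, 52.3, 39.2 and 39.3 CPM in the wild type at E11.5 and at 15.6, 8.97, 12.1 and 10.2 CPM at E17.5. In humanized mice it was at 46.0, 36.8, 36.3 and 31.2 CPM and at 10.4, 10.7, 11.6 and 10.2 CPM. The groups of the stages were still separate, and the log2 fold changes were -2.02 ± 0.23 (SE, edgeR adjusted p = 3.21e-05) and -1.82 ± 0.13 (SE, adjusted p = 1.33e-07). Over all 8 genes, the E11.5 and E17.5 samples did not overlap for 8 of 8 members in each genotype, where 25.1% of genes tested were lower without overlap in wild type and 36.7% in humanized mice. Leaving out the wild type replicate 1 library at E17.5, 8 of 8 were still called, with log2 fold changes from -4.33 (Pax3) to -2.01 (Pax6). That fit called 13994 genes in either direction, where the fit over all wild type samples called 4963 lower and 5393 higher. The background of the full fit is thus too low to set beside this count.

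**Figure D1:**
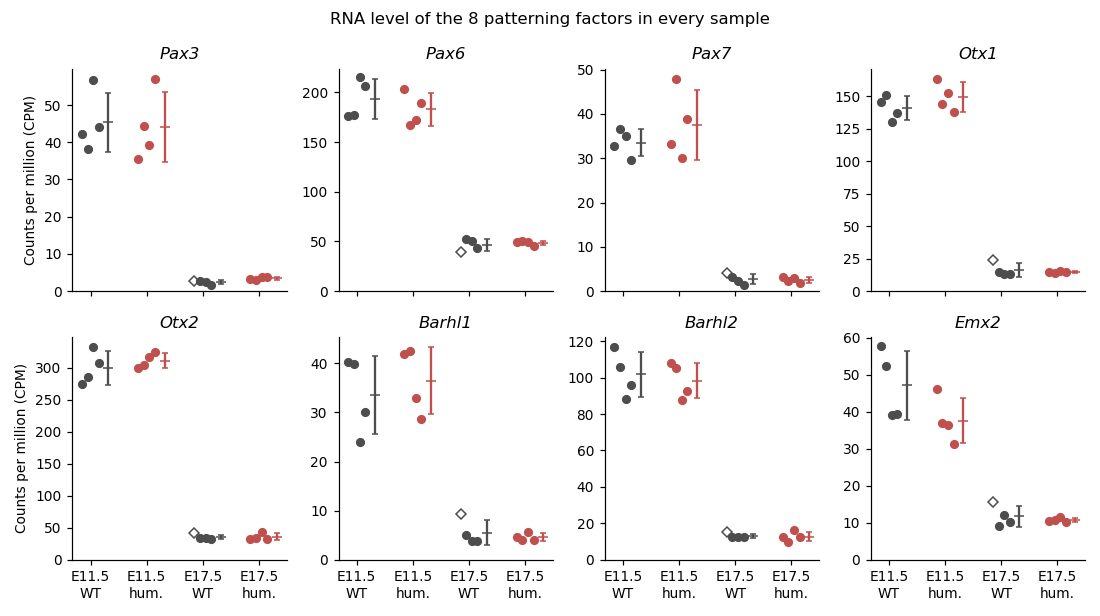
Level of each member in CPM (linear axis from 0) in the 16 RNA samples: points are replicates of wild type (grey) and humanized (red) mice, the bars beside them the mean ± SD of 4, and the open diamond wild type replicate 1 at E17.5. All 8 genes sit lower at E17.5 in every sample, and the diamond lies highest of its group in 7 panels and lowest for Pax6.

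Levels of different genes were compared per length, as RPKM, the CPM divided by the length of the canonical transcript in kilobases. At E11.5 in wild type mice the order was Otx2 (91.6 ± 7.96, SD, n = 4), Otx1 (50.5 ± 3.37), Barhl2 (38.9 ± 4.69), Pax6 (33.3 ± 3.47), Emx2 (16.2 ± 3.21), Pax3 (13.4 ± 2.36), Barhl1 (9.16 ± 2.15) and Pax7 (5.73 ± 0.523). Barhl2 and Pax6 overlapped in their samples, as did Emx2 and Pax3, while the other neighbours in this order did not. By E17.5 the order in RPKM was Otx2 (10.9 ± 1.12), Pax6 (7.97 ± 1.07), Otx1 (5.78 ± 1.97), Barhl2 (5.01 ± 0.468), Emx2 (4.02 ± 0.988), Barhl1 (1.498 ± 0.704), Pax3 (0.722 ± 0.140) and Pax7 (0.467 ± 0.200). Of the neighbours in that order, Pax6 overlapped Otx1, Otx1 overlapped Barhl2, Barhl2 overlapped Emx2 and Pax3 overlapped Pax7. The overlap of Pax6 with Otx1 came through replicate 1 alone, where Otx1 was at 8.72 RPKM and Pax6 at 6.73, while the other 3 replicates held Otx1 at 4.60 to 5.15 and Pax6 at 7.47 to 9.09. Without that replicate Barhl2 and Emx2 did not overlap either, and the remaining pairs did. The place of Pax6 rests on its length: over all of its exonic bases, its level was 16.3 RPKM at E11.5 and 3.91 at E17.5 (this other length was tried once the values were known).

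The ratio of paralogues per length was compared between the stages to ask whether the members of a pair fell alike. In wild type mice Otx2 over Otx1 was 1.83 ± 0.279 (SD, n = 4) at E11.5 and 1.98 ± 0.373 at E17.5, Barhl2 over Barhl1 was 4.35 ± 0.618 and 3.73 ± 1.12, and Pax3 over Pax7 was 2.36 ± 0.433 and 1.68 ± 0.412. Wild type replicate 1 at E17.5 was the lowest of its group for each pair. Its ratio was 1.44 for Otx2 over Otx1 (2.05 to 2.28 in the other replicates). For Barhl2 over Barhl1 it was 2.26 (3.46 to 4.74), and for Pax3 over Pax7 1.17 (1.52 to 2.08). The wild type E17.5 means and the test include this replicate. Humanized mice had ratios of 1.78 and 2.07, 3.83 and 3.90, and 2.07 and 2.51. With 6 comparisons, none passed an exact permutation test (two-sided, unadjusted p from 0.0857 to 0.8, adjusted p from 0.257 to 0.8, where 0.0286 is the smallest unadjusted p that 4 against 4 allow). Pax3 over Pax7 moved in opposite directions in the 2 genotypes, and samples of the stages overlapped in each.

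**Figure D2:**
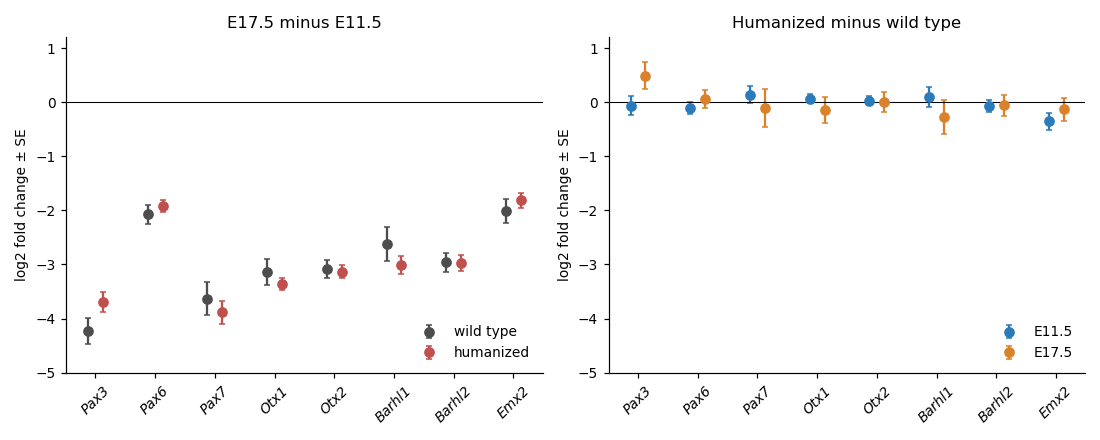
Log2 fold changes with standard errors (edgeR) for the stage comparison in each genotype (left) and for humanized minus wild type at each stage (right), on the same scale. Stage values lie between -4.23 and -1.82, genotype values between -0.35 and 0.49.

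The humanized and wild type mice were then compared at each stage, with the same 16 samples as in the stage comparisons. By edgeR's quasi-likelihood test 0 of 8 members were called at either stage. The background at E11.5 was 0% of 17816 genes (1058 lay under 0.05 before adjustment, and DESeq2 called 2). The background at E17.5 was 0% of 18763 genes (207 lay under 0.05 before adjustment, and DESeq2 called 1). Differences at E11.5 ran from -0.35 (Emx2) to 0.14 (Pax7) in log2 units. Emx2 had a standard error of 0.16 and an unadjusted p of 0.0492 from edgeR (adjusted p = 0.577), with 47.1 ± 9.35 CPM (SD, n = 4) in wild type and 37.6 ± 6.18 CPM in humanized mice, and the samples overlapped. Leaving out single replicates moved its log2 difference from -0.46 to -0.24. No member separated the genotypes at E11.5, a pattern found in 2.5% of the genes tested.

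Pax3 at E17.5 was the only member whose genotypes did not overlap, in a background of 1.21% of genes. Its 4 humanized samples lay between 2.85 and 3.82 CPM and its wild type samples between 1.77 and 2.82 CPM, a log2 difference of 0.49 with a standard error of 0.25 (unadjusted p = 0.0738, adjusted p = 0.808, edgeR). These levels rest on no more than 67 reads per sample. For the other 7 members the log2 difference at E17.5 was between -0.28 (Barhl1, standard error 0.31) and 0.06 (Pax6, standard error 0.16). Without wild type replicate 1, the values of Barhl1, Otx1, Pax7, Emx2 and Barhl2 changed sign, to 0.10, 0.13, 0.18, 0.03 and 0.01, and that of Pax6 to -0.01. The interaction of stage and genotype called 0 of 8 members, beside 0% of 20234 genes (1610 under 0.05 before adjustment, 0 by DESeq2), and its values ran from -0.39 (Barhl1, standard error 0.37) to 0.54 (Pax3, standard error 0.27, adjusted p = 0.462, edgeR).

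Cell-type markers moved with the stage as well. The progenitor list (Sox2, Nes, Hes5, Mki67 and Vim) summed to 3592 to 3796 CPM in wild type mice at E11.5 and 471 to 763 CPM at E17.5, and 5 of 5 of its genes were called lower in both genotypes. Nes, an intermediate filament of neural stem cells, had a log2 fold change of -4.10 in wild type mice, and Hes5, a Notch target of progenitors, one of -3.10. The neuron list had 3 of 4 genes called higher in both genotypes. Of the 8 diencephalon markers, wild type mice had 1 called lower (Irx1, -1.86) and 1 higher (Lhx9, 1.02), and humanized mice 1 lower and 4 higher. The part of cell composition in the fall of the 8 members was not tested.

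Secreted patterning signals were lower too, and a link between them and the members was not tested. Of the 8 signal genes, 7 were tested in each genotype and 7 were called lower. The roof plate signals Wnt3a and Wnt1 had log2 fold changes of -5.34 and -4.39 in wild type mice, and Shh of the floor plate and zona limitans -3.71. Among 16 other regional factors, 6 were called lower and 4 higher in wild type mice, with Dmbx1 (-5.50) and Dbx1 (-5.31) lowest and Fezf1 (2.81) and Six3 (1.31) highest. Humanized mice had 8 called lower and 6 higher.

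Further lists hold partners and relatives. Of the 5 Groucho corepressors, wild type mice had Tle3 called lower (-1.93) and Tle2 higher (1.29), and humanized mice had 3 lower and 2 higher. Among 8 relatives (Pax1, Pax2, Pax4, Pax5, Pax8, Pax9, Emx1 and Crx) 3 were tested for stage in each genotype, and together they summed to no more than 7.84 CPM in any sample. Emx1 was called lower (-3.70 in wild type mice), and Crx, a photoreceptor and pineal factor, higher (3.74), beside pineal markers that summed to at most 0.538 CPM at E11.5 and to between 3.82 and 14.5 CPM at E17.5. Nearly all of that sum was Tph1 (0.325 to 9.03 CPM in wild type mice), while the defining markers Aanat and Asmt were near 0, with at most 10 counts in any sample. Whether pineal tissue took part in the level of Crx was not tested. No gene of these lists was called between the genotypes.

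Genes that overlap members were read alongside. The antisense lncRNA Otx2os1 fell with Otx2 (log2 fold change -2.11 ± 0.24, SE, adjusted p = 3.51e-05, edgeR, wild type), as did Gm49154, a transcript annotated on the same strand as Otx2 (-2.61 ± 0.35, SE). Emx2os, antisense to Emx2, went from 6.29 ± 1.29 CPM (SD, n = 4) to 2.04 ± 0.273 CPM in wild type mice (-1.64, adjusted p = 1.71e-04, edgeR). Elp4, which runs antisense into Pax6 and holds known Pax6 enhancers, had -0.70, and Ddx31, which shares 39 bases with Barhl1, -1.22. Pax6os1 stayed below 1 CPM in every sample. Counts taken without strand cannot split antisense pairs, but for the 8 members they were 100% to 104% of those in the strand column, while those of Gm49154 were 175% to 369%, so that its value is uncertain.

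Likeness was measured as the Pearson correlation of deviations from the 4 group means over the 16 samples, among 14826 protein-coding genes. The most alike were Frmd4b, Tfap2a and Meis1 for Pax3 (r = 0.850, 0.849 and 0.792), Pm20d2, Aass and Dusp16 for Pax6 (0.888, 0.876 and 0.819) and Myo18b, Zbtb42 and Tmc6 for Pax7 (0.898, 0.874 and 0.870). For Otx1 they were Rcc2, Snrnp70 and Lmnb1 (0.978, 0.977 and 0.977), and for Otx2 Tekt4, Lrrc10b and Prdm12 (0.899, 0.808 and 0.790). Barhl1 had Ltbp3, Ell and Cep131 (0.969, 0.954 and 0.945), Barhl2 had Ngrn and Dennd1c (0.890 and 0.885), and Emx2 had BC031181, Apod and Gstm5 (0.913, 0.905 and 0.905). The matching Spearman values of these genes lay between 0.694 and 0.962. Among the members themselves, Otx1 and Barhl1 were most alike (r = 0.887, rho = 0.853, and r = 0.836 without wild type replicate 1 at E17.5). Such values were common: among the 14826 genes Barhl1 ranked only 1453 in likeness to Otx1, and Otx1 ranked 194 in likeness to Barhl1. These points share libraries and the single outlying library: without wild type replicate 1 at E17.5, Rcc2 and Otx1 had r = 0.874.

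Promoters of the 8 genes were examined in the peak lists, as peaks within 1 kb either side of any annotated start. Fold enrichment is the value the authors' peak caller gave over local background, and the highest peak per replicate was used. At E11.5 all 8 members had H3K4me3, H3K27ac and H3K27me3 peaks in 2 of 2 wild type replicates, and 2 of 2 humanized replicates had them too. Among 21603 protein-coding genes, 66.1% had H3K4me3 in every wild type replicate, 50.2% H3K27ac and 22.1% H3K27me3, and 20.5% had H3K4me3 together with H3K27me3. At E17.5, H3K27me3 was present at 8 of 8 members in 3 of 3 wild type and 3 of 3 humanized replicates (22.6% of all genes). H3K4me3 and H3K27ac were present in 3 of 3 wild type replicates at 7 of 8, all but Pax7 (66.3% and 60.2% of all genes), and 7 of 8 had H3K4me3 with H3K27me3 (19.8%).

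Pax7 had no called H3K4me3 or H3K27ac promoter peak left at E17.5. Its H3K4me3 peak had fold enrichments of 22.9 and 23.2 in the wild type replicates at E11.5 and its H3K27ac peak 6.26 and 10.6, and neither mark was called in any of the 3 wild type or 3 humanized replicates at E17.5. H3K27me3 stayed at 11.8 ± 0.940 (SD, n = 2) and 11.3 ± 1.11 (SD, n = 3). Pax3 went the same way in part: H3K4me3 fell from 30.3 and 36.2 to between 3.35 and 4.95, and H3K27ac from 14.9 and 22.0 to between 4.90 and 5.12, with H3K27me3 at 14.0 ± 2.66 and 15.4 ± 1.47. In humanized mice the H3K27ac peak of Pax3 was called in 1 of 3 replicates at E17.5.

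The 200 bases before the annotated starts of these paralogues, the members whose H3K4me3 and H3K27ac peaks were lost or most reduced, are shown on the minus strand of mm39, 5′ to 3′, with each CpG dinucleotide in capitals.
Pax3 chr1:78173772-78173971: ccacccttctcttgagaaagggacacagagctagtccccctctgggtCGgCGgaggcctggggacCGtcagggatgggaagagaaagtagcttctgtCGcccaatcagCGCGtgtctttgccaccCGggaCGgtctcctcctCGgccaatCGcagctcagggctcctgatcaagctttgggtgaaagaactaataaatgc
Pax7 chr4:139560840-139561039: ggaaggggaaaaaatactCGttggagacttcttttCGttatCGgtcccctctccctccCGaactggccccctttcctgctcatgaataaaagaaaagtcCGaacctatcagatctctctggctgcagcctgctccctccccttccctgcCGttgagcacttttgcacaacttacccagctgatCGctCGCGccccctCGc
Each holds 10 CpGs, with a GC content of 58.5% for Pax3 and 55.0% for Pax7. CpG-rich promoters are the usual sites of Polycomb and H3K4me3. Within 1 kb either side of the start, the observed over expected CpG ratio was 0.592 at Pax3 and 0.607 at Pax7, beside a median of 0.461 over 21603 protein-coding genes. All 8 members lay above that median. Pax3 exceeded 66.1% of genes and Pax7 68.4%, and the highest members were Otx1 at 0.723 (84.7%) and Barhl2 at 0.870 (96.95%).

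H3K4me3 was lower at E17.5 at every member that kept it. In the wild type replicates Otx1 went from 68.0 and 76.6 to between 23.9 and 27.8, and Otx2 from 45.5 and 54.1 to between 23.5 and 30.7. Barhl2 went from 50.0 and 53.6 to between 10.5 and 15.6, and Barhl1 from 21.9 and 22.3 to between 4.39 and 7.98. Emx2 went from 36.5 and 40.2 to between 13.7 and 19.4, and Pax6 from 36.5 and 55.1 to between 22.8 and 25.5. For 7 of 7 members with peaks at both stages, every E17.5 replicate was below every E11.5 replicate, where 6.95% of 14081 promoters showed this. The ratio of the stage means (E17.5 over E11.5) was 0.125 to 0.528 over these 7, while the median of all promoters was 1.14. The humanized ratios were 0.125 to 0.492, with a median of 1.13 for all promoters.

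H3K27ac was less uniform. In wild type mice 4 of 7 members (Pax3, Otx2, Barhl1 and Barhl2) were lower at E17.5 without overlap, where 3.05% of 10622 promoters were. Otx2 had the highest values of the set at E11.5, 45.4 and 54.2, and lay between 18.4 and 26.0 at E17.5. Pax6 was at 21.3 ± 2.58 (SD, n = 2) and 23.2 ± 1.35 (SD, n = 3), and Emx2 at 11.6 ± 0.624 and 10.4 ± 1.06. The median ratio of stages over all promoters was 2.04, and Pax6 had the highest ratio of the members at 1.09. For Pax6 this takes the highest peak over 29 starts. Around its first starts (chr2:105498234-105500280) the wild type mean went from 14.6 to 23.2, and at chr2:105521828-105523828 from 3.50 to 23.2. At its other windows it went from 21.3 to 23.2. In humanized mice Pax6 went from 39.7 ± 1.78 to 16.9 ± 2.93, a ratio of 0.426, and 6 members with peaks had ratios of 0.255 to 0.502 beside a median of 1.46. For Pax6 and Barhl1 the genotypes did not overlap at either stage, with humanized replicates higher at E11.5 and lower at E17.5. Those of Pax6 at E17.5 lay between 14.6 and 20.2 against 21.6 to 24.0 in wild type. At Barhl1, humanized replicates lay between 17.0 and 19.3 at E11.5 against 7.90 to 14.0 in wild type. At E17.5 they lay between 3.81 and 5.81 against 5.83 to 6.83. Otx2 at E11.5 and Emx2 at E17.5 separated the genotypes in the same direction as Pax6. The share of all promoters that separate in this way was not measured, and the E11.5 lists are only 2 against 2. The median stage ratio over all promoters was also lower in humanized mice, at 1.46 against 2.04. Whether these separations go beyond such a shift of whole lists was not tested. These differences were not tested. The H3K27ac antibody is described by the study as cross-reacting with another histone acetylation, so these peaks may include it.

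Otx1 and Otx2 stood out for H3K27me3. At E11.5 their fold enrichments were low, at 4.20 and 4.82 for Otx1 and 3.56 and 3.61 for Otx2, while the other 6 members had means of 10.7 to 15.7. By E17.5 Otx1 was between 10.7 and 13.7 and Otx2 between 11.6 and 14.5, in the range of the other 6 (means of 11.3 to 15.4). These 2 of 8 members were higher without overlap, a count near the share over all promoters (20.3% of 3922 higher, 45.7% lower). The size of the rise, not this count, set them apart. Their ratios of 2.68 and 3.53 exceeded those of 99.7% and 99.9% of promoters, the median being 0.853. Humanized mice, whose samples are separate, had ratios of 2.03 for Otx1 and 2.58 for Otx2, and 0.674 to 0.850 for the other 6. The humanized median over all promoters was 0.703. At E11.5 the humanized replicates lay above the wild type ones without overlap at Otx1 (4.90 and 5.61), Otx2 (4.02 and 4.34), Pax7 and Barhl1. At the remaining members they overlapped. The share of all promoters with this separation was not measured. No test was made for single promoters, with 2 replicates against 3.

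**Figure D3:**
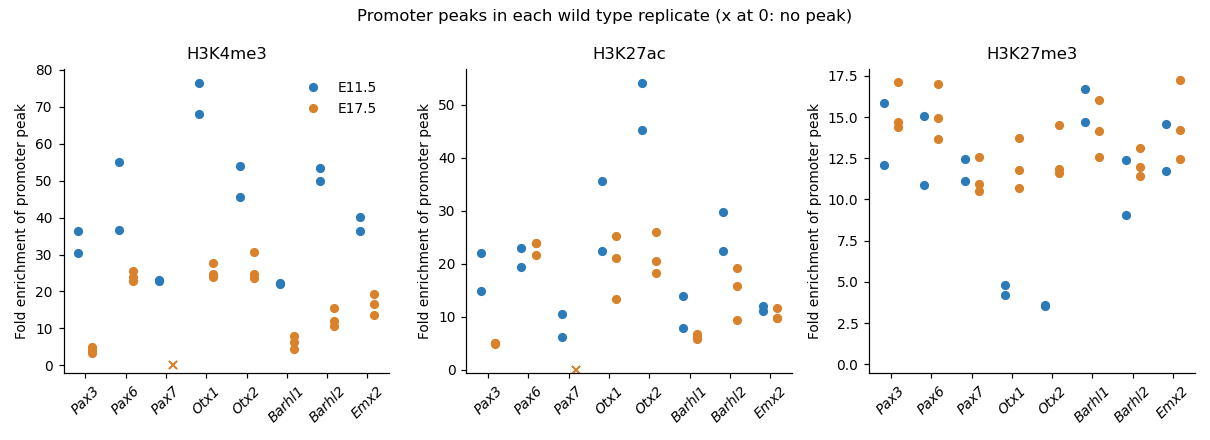
Highest fold enrichment of promoter peaks (linear axes) for each member and wild type replicate at E11.5 (blue, 2 replicates) and E17.5 (orange, 3 replicates). Crosses at 0 mark replicates with no peak, which are the E17.5 replicates of Pax7 for H3K4me3 and H3K27ac. Of the members, Otx1 and Otx2 alone have H3K27me3 higher at E17.5 without overlap, as have 20.3% of 3922 promoters.

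The extent of the marks was measured as the share of each gene, with 10 kb either side, that lay inside peaks. H3K27me3 covered 67.8% and 61.3% of the Otx1 span in the wild type E11.5 replicates, and 97.7%, 99.6% and 97.2% in those of E17.5. The Otx2 span was covered to 54.3% and 49.9%, then to 88.3%, 83.9% and 83.5%. In humanized mice, Otx1 went from 67.1% and 70.6% to between 94.1% and 97.6%, and Otx2 from 58.2% and 59.96% to between 78.9% and 81.2%. The Pax7 span was covered to 53.6% and 41.4%, then to between 68.2% and 77.1%. Pax3 went from 74.99% and 70.7% to between 81.2% and 84.1%, and Pax6 from 68.9% and 66.0% to between 75.1% and 81.1%. Over Barhl2 and Emx2, H3K27me3 already covered at least 89.4% at E11.5 and all bases in 3 of 3 wild type replicates at E17.5. Wild type cover was thus higher at E17.5 without overlap at 7 of 8 members, all but Barhl1. The share of all genes with such a rise was not measured, so the count cannot be set against a background. Covered length moves with how much was called: the wild type H3K27me3 lists held 13850 and 19166 peaks at E11.5 and 27452 to 43700 at E17.5.

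H3K4me3 covered 8.43% to 9.49% of the Pax7 span at E11.5 and 0% at E17.5. For Pax3 it went from at least 15.3% to at most 1.61%. Otx1 went from 62.1% and 61.4% to between 54.1% and 55.7%. The Pax6 span went from 51.9% and 49.2% under H3K4me3 to between 37.6% and 40.9%, and its H3K27ac cover was 42.6% and 42.9% at E11.5 and 45.7% to 53.5% at E17.5.

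**Figure D4:**
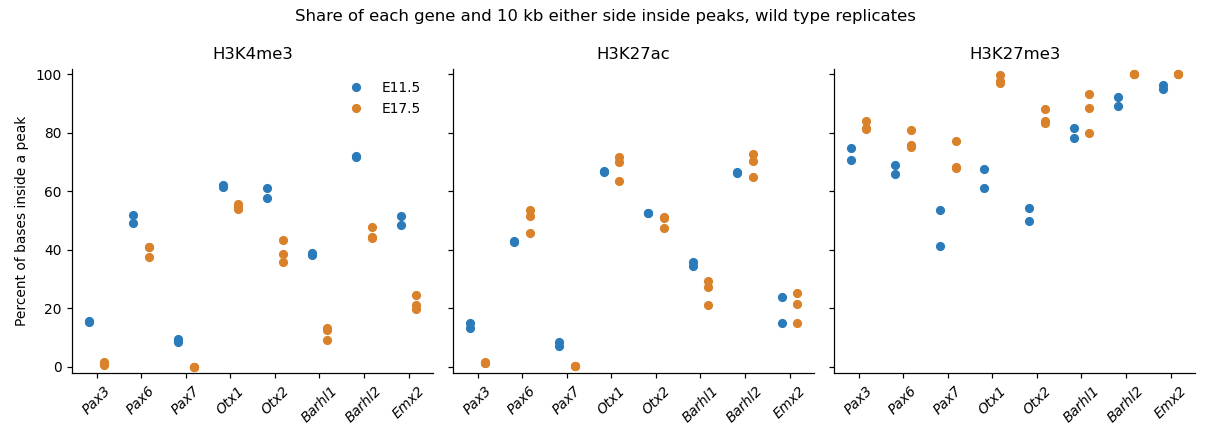
Percent of the bases of each gene and 10 kb either side that lie inside a peak of each mark, for each wild type replicate at E11.5 (blue) and E17.5 (orange). H3K27me3 cover is higher at E17.5 without overlap at every member but Barhl1, from lists that hold more peaks at that stage. H3K4me3 and H3K27ac fell to near 0 at Pax3 and Pax7.

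Distal H3K27ac regions were taken within 100 kb of each gene, away from promoters of protein-coding genes, where every wild type replicate had a peak. At E11.5 there were 8 near each of Pax7, Otx1 and Otx2, 7 near Pax3, 5 near Barhl2, 4 near Barhl1 and 2 each near Pax6 and Emx2. The median over protein-coding genes was 1, and 96.7% of genes had fewer than 8. At E17.5 the numbers were 6 near Otx2, 4 each near Pax7, Barhl1 and Barhl2, 3 each near Pax3 and Otx1, 2 near Pax6 and 1 near Emx2, with a median of 2 over all genes. Humanized lists gave 2 to 9 regions per gene at E11.5 and 1 to 5 at E17.5. A region near a gene need not act on it.

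The genes differed in whether these regions had a peak at the other stage. Of the 44 regions at E11.5, 18 (40.9%) had no peak in any wild type E17.5 replicate, while 25.9% of all 12434 distal regions had none. With 1 of the 2 E11.5 lists left out there were 62 to 77 regions, so the 44 rest on both lists. Pax3 had 6 of 7 such regions and Pax7 6 of 8, and all 6 of Pax7 lay within 25279 bases of its start, 4 of them inside the gene. Otx2 had 2 of 8, Barhl1 1 of 4, and Pax6 and Emx2 0 of 2. Of the 27 regions at E17.5, 7 (25.9%) had no peak at E11.5, against 68.4% of 31957 distal regions. Absence from 3 lists is a stricter demand than absence from 2.

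Strong regions near the members lay as follows. Upstream of Otx2, a region at chr14:48987806-48992463 had a mean fold enrichment of 15.5 ± 1.96 (SD, n = 2) at E11.5, the highest of the members, and an overlapping region had 6.49 ± 1.07 (SD, n = 3) at E17.5. A region at chr14:48946329-48949128 was the strongest near Otx2 at E17.5, at 10.3 ± 0.230, and its counterpart at E11.5 had 10.8 ± 0.643. Near Pax6 the strongest was chr2:105441406-105443332, 55902 bases upstream, at 11.2 ± 1.07 at E11.5, with a peak in 2 of 3 replicates at E17.5. Inside Pax7, chr4:139534002-139535560 had 8.69 ± 0.118 at E11.5 and 0 of 3 replicates at E17.5, and it carried H3K27me3 in 2 of 2 replicates at E11.5. The strongest near Pax7 at E17.5 was chr4:139652397-139654923, 91558 bases upstream, at 11.7 ± 1.65 (SD, n = 3), with peaks in 2 of 2 replicates at E11.5.

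For Otx1, chr11:22024579-22026037, in an intron of the neighbouring gene Ehbp1, had 7.25 ± 0.248 at E11.5 and peaks in 3 of 3 replicates at E17.5. Barhl2 had 9.15 ± 2.68 at chr5:106595045-106597542, downstream of the gene, at E11.5 and 9.10 ± 2.68 at chr5:106611548-106616196, 5212 bases upstream, at E17.5. Near Barhl1, chr2:28906667-28907268 in Cfap77 had 6.85 ± 0.0140 at E11.5 and its counterpart 9.55 ± 0.482 at E17.5. Pax3 had 5.88 ± 0.638 at chr1:78177844-78178832, 4073 bases upstream, with 0 of 3 replicates at E17.5.

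**Figure D5:**
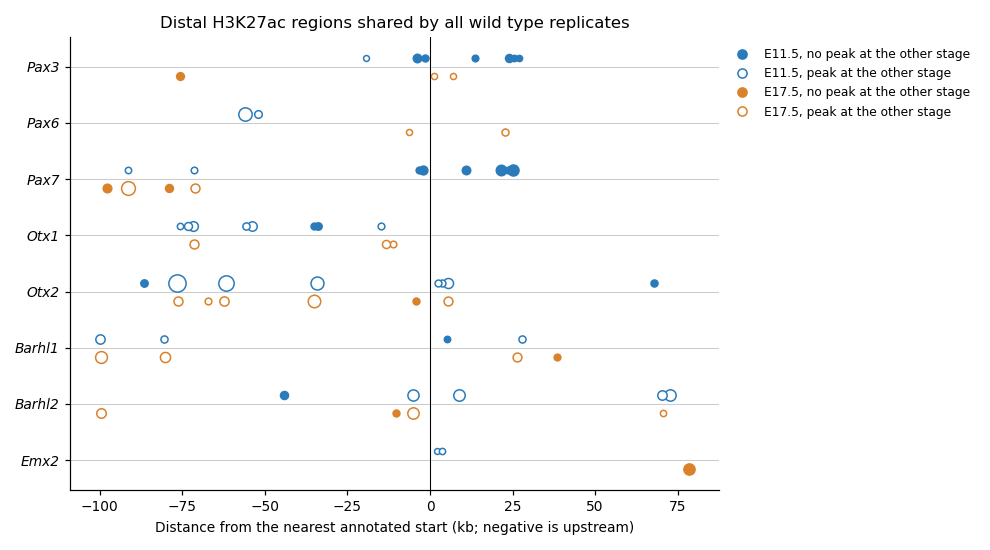
Distal H3K27ac regions called in every wild type replicate, by distance in kb from the nearest start (negative is upstream), at E11.5 (blue) and E17.5 (orange), with larger circles for higher mean fold enrichment. Filled circles have no peak at the other stage: they make up 6 of 7 E11.5 regions near Pax3 and 6 of 8 near Pax7, and the only E17.5 region near Emx2.

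The sequences at the summits of regions that contrast in stage are shown on the plus strand of mm39, from 100 bases before to 100 after each summit: regions called at E11.5 inside Pax7 (lost at E17.5), near Otx1 (kept) and near Otx2 (kept and strongest). Capitals mark the homeodomain core TAATTA, which is its own reverse complement, and TAATCC, the core that Otx proteins bind, on either strand. Runs with no capitals hold neither.
Pax7 intron chr4:139534369-139534569: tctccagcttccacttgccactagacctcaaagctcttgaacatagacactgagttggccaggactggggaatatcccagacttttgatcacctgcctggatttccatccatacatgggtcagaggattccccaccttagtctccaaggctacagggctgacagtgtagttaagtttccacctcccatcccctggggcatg
Otx1, in an Ehbp1 intron chr11:22024941-22025141: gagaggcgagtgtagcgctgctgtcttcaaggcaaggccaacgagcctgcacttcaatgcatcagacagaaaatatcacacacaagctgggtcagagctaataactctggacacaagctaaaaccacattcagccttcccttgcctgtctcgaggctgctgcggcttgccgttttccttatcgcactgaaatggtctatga
Otx2, in an Otx2os1 intron chr14:48991097-48991297: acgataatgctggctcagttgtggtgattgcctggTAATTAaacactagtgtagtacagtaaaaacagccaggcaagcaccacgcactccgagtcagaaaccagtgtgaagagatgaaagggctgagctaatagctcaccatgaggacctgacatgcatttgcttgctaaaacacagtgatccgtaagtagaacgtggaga
TAATTA occurred in 2 of 44 summit windows near members at E11.5 (4.55%) and in 3.82% of all 12434, and TAATCC in 4 of 44 (9.09%) and 5.49%. At E17.5 each occurred in 1 of 27 (3.70%), against 4.43% and 5.48% of 31957. The letters can overlap, and a match is not evidence of binding.

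Around the set, distal H3K4me3 regions were fewer at E17.5, while distal H3K27me3 regions were more numerous, as they were over the whole genome. H3K4me3 regions went from 38 at E11.5 to 11 at E17.5, while all distal H3K4me3 regions went from 6271 to 6287. H3K27me3 regions went from 22 to 56, and all distal H3K27me3 regions from 5416 to 10360. The early H3K27me3 count rests on each of its 2 lists, as leaving out 1 of them gave 32 to 56 regions. Of the 38 H3K4me3 regions, 22 (57.9%) had no peak at E17.5, against 18.2% of all distal H3K4me3 regions. Of the 56 H3K27me3 regions, 40 (71.4%) had no peak at E11.5, beside 64.0% of all, and the 8 near Otx2 and the only one near Otx1 were all among them. Pax7 went from 7 regions to 16, and 99.9% of protein-coding genes had fewer than 16, but its humanized lists went the other way, from 14 to 9. Humanized lists also had fewer near Pax6 (6, then 4), 2 near Emx2 at each stage and more near the other members at E17.5. These differences between the genotypes were not tested.

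CTCF, which bounds chromatin loops, was profiled at E17.5 alone. Promoter peaks in 3 of 3 wild type replicates were found at 3 of 8 members, in a background of 41.7% of protein-coding genes: Barhl1 (7.05 to 7.88 fold enrichment), Emx2 (6.32 to 7.64) and Otx1 (4.24 to 6.94). Humanized lists had them in 3 of 3 replicates at Barhl1 and Emx2 and in 2 of 3 at Otx1. Distal CTCF regions numbered 16 near Pax7 and 1 each near Otx1 and Otx2, with a median of 5 over all genes. The strongest near Barhl1, at chr2:28813435-28814358, 6755 bases upstream, had a mean fold enrichment of 48.8.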

How the data were processed

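RNA was measured in 16 samples and chromatin by ChIP-seq in the same tissue. The authors aligned reads to mm39, counted them per gene with STAR 2.7.9a, and deposited whole-number counts without normalization, with GENCODE release 31 as annotation. The column counted without strand was used, and the strand column as an alternative. ChIP-seq reads were aligned by the authors with Bowtie2 2.4.2, and MACS2 2.2.7.1 gave peak lists per replicate. In the deposited lists each peak has a fold enrichment over local background, a −log10 p and −log10 q and an integer score. H3K27me3 lists hold broad regions, where the fold enrichment is a mean over the region and not a summit value, so marks were not compared with each other in height. Humanized lists were made on a genome with the human sequence, which differs on chromosome 13 alone.

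Gene positions and starts were taken from GENCODE release M39, which matched 98.8% of the gene IDs. Reads on no gene (48.1% to 58.4% per sample) were left out of library sizes. Counts of 16414369 to 24272569 per sample limit precision chiefly for Pax3 and Pax7 at E17.5, which had at most 80 reads. edgeR 4.0.16 (R 4.3.3) filtered low genes, scaled by TMM and fitted its quasi-likelihood test over all genes of the groups compared, with Benjamini-Hochberg adjustment and a threshold of 0.05. Genotype, stage and their interaction were tested. Promoter peaks overlapped the 1 kb either side of an annotated start by at least 1 base, and distal regions lay within 100 kb of the gene and were shared by every replicate of a group. Peak lists give no depth, so no interval is given for them. Alternatives were DESeq2 1.42.0, its size factors, no filter on low counts, a replicate block, a fit over all samples, single left-out replicates, other windows, distances and overlaps, and a −log10 q of at least 5. Scripts were tested on simulated data. The 8 genes, the further lists and the tests were chosen with earlier results of these data known. Named genes are the 8 members, the genes that overlap them (Gm49154, on the same strand, was added after its values were seen), the largest called changes of each list, and the 3 genes most like each member. A few items that these rules name are not reported here. Replicates are litters, so p-values measure the spread between pools of one litter each.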

Additional observations from a re-analysis of the deposited data

Results flagged for a closer look

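In 3 of the 32 groups of 4 RNA samples, a sample lay far from the other 3 by Dixon's criterion, which chance meets in about 1 in 20 groups. Otx1 was at 24.3 CPM in wild type replicate 1 at E17.5, where the nearest other sample was at 14.4 CPM. Barhl2 was at 14.9 CPM in the same library, with the next at 12.6 CPM. Otx2 was at 44.0 CPM in humanized replicate 3 at E17.5, with the next at 34.2 CPM.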

How the results depend on the processing

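In both genotypes 8 of 8 members were called lower at E17.5 under all 14 alternatives, and no member was called for genotype or interaction under any. For all genes, DESeq2 called 2 between the genotypes at E11.5, where a fit over all samples called 1, and DESeq2 called 1 at E17.5. The labels give replicate numbers but state no pairing. Samples with the same number had correlations from -0.45 to 0.48. Between the genotypes at E17.5 these were all positive, at 0.47, 0.48, 0.05 and 0.15 for replicates 1 to 4. The replicate block called 8, 8, 0, 0 and 0 members and changed no call. Small genotype values changed sign: Otx2 at E17.5 was -0.00215 with DESeq2, -0.025 without a filter and -0.0039 with the block, and the Barhl2 interaction was -0.0039 without a filter. Leaving out single replicates gave, at E11.5, -0.22 to 0.065 for Pax3, -0.011 to 0.087 for Otx2, -0.031 to 0.20 for Barhl1 and -0.13 to 0.00023 for Barhl2. At E17.5 it gave -0.013 to 0.15 for Pax6, -0.31 to 0.18 for Pax7, -0.23 to 0.13 for Otx1, -0.088 to 0.078 for Otx2, -0.42 to 0.099 for Barhl1, -0.18 to 0.038 for Barhl2 and -0.22 to 0.033 for Emx2. Interactions ranged from -0.48 to 0.039 for Pax7, -0.33 to 0.048 for Otx1, -0.16 to 0.030 for Otx2 and -0.15 to 0.093 for Barhl2. The cause of these sign changes was not tested. Counts of distal regions scaled with the distance and the demand on replicates by construction. With 50 kb, 200 kb and a −log10 q of at least 5, H3K27ac regions numbered 27, 72 and 24 at E11.5 (62 to 77 with 1 replicate left out) and 13, 50 and 16 at E17.5 (32 to 41). H3K4me3 regions at E17.5 numbered 7, 25 and 7. H3K27me3 regions numbered 12, 38 and 2 at E11.5 (32 to 56) and 26, 90 and 10 at E17.5, and CTCF regions 27 and 83 at the nearer and farther distance. With single replicates left out, the stage comparison in wild type mice called 9147 to 13994 genes, the most without replicate 1 at E17.5.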
